A study of Mus musculus with 6 samples.

Results

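Affymetrix arrays were hybridised with RNA of postnatal day 7 mouse retina, 3 from knockout and 3 from wildtype mice. The labels give a C57BL/6 strain for both groups and leave unsaid whether animals were pooled. The genes described here are a set of 40 cell cycle and DNA replication genes chosen by name: cyclins, cyclin-dependent kinases and their inhibitors, replication factors, enzymes of deoxynucleotide supply, and mitotic regulators. Of these, 39 had a probe set named for them alone, out of 12393 genes counted in the same way; for Ccnb1 no probe set was named in the annotation used. Where a gene had several probe sets, the one with the highest mean signal over the 6 arrays stood for it. Of the 39, 30 had a mean signal above the 40th percentile of all probe sets and were tested, and 9 lay below it.

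A cell enters the cycle when D-type cyclins with Cdk4 or Cdk6, then E-type cyclins with Cdk2, phosphorylate Rb1 and free E2F factors, which switch on genes for DNA synthesis. Cyclin A, cyclin B and Cdk1 then carry the cell into mitosis, where checkpoint and spindle kinases time the separation of chromosomes, and inhibitors of the Cdkn1 family hold cells out of the cycle. In the first postnatal week of the mouse, retinal progenitors make their last divisions, ending in the centre of the retina before the periphery, while Mueller glia, vessels and microglia in the same tissue can still hold dividing cells. The comparison asks whether the transcripts of this machinery differed between knockout and wildtype retinae as progenitor division was ending. In RNA from whole retina, fewer dividing cells and less transcript per dividing cell cannot be told apart.

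None of the 30 tested genes passed the test (limma adjusted p = 0.999 for each), where 0.0147% of all 13575 tested probe sets passed. The median log2 fold change, knockout minus wildtype, was 0.04 over the 30 genes and 0.0003 over all tested probe sets. Positive values were found for 16 of the 30 genes, or 53.3%, against 50.1% of all probe sets. A difference of at least 1.5-fold on the log2 scale was seen for 2, Rrm1 and Bub1b, where 3.79% of all probe sets showed one. An unadjusted p under 0.05 was reached by 1 of the 30, Bub1b, where 3.82% of all probe sets reached it. The knockout and wildtype arrays did not overlap for 5 of the 30 genes, with knockout higher for 2 (Ccnd3 and Cdk2) and lower for 3 (Pcna, Rrm1 and Plk1). Over all probe sets non-overlap held for 9.1%, with knockout higher for 4.05% and lower for 5.05%. The 95% interval of the difference, not adjusted for the number of tests, lay within 2-fold for 27 of the 30 genes and within 1.5-fold for 15. The genes whose interval reached past 2-fold were Cdkn1a, Rrm1 and Bub1b. These intervals do not give the smallest difference that the adjusted test could detect with 3 arrays a group. A dimmer Dck probe set, not the one used here, was at -1.03 on the log2 scale and did not pass (limma adjusted p = 0.999).

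**Figure D1:**
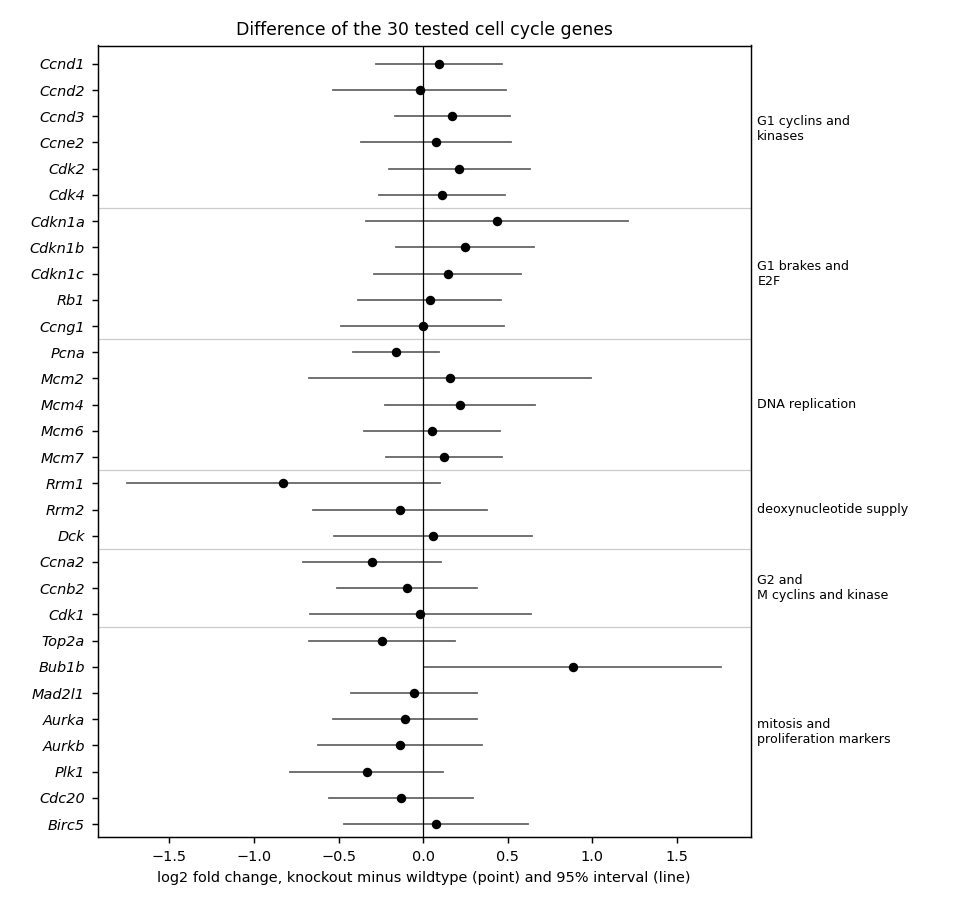
The log2 fold change of each of the 30 tested genes, knockout minus wildtype, is drawn as a point with its 95% interval from limma as a line, and genes are ordered by role. All intervals cross 0 except that of Bub1b, which runs from 0.004 to 1.76 and did not pass after adjustment.

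The arrays differed in ways that touch these values. The trimmed mean signal before rescaling was 304, 277 and 263 in knockout arrays 1 to 3 and 215, 171 and 312 in wildtype arrays 1 to 3. Knockout array 1 correlated with the others at 0.914 to 0.936, against 0.958 to 0.979 among the other 5. The mean of the 3 18S ribosomal RNA control probe sets, after scaling, was 273 in knockout array 1 and 983 in wildtype array 2, while the remaining 4 arrays had 56.1 to 63.6. The 3′ to 5′ signal ratio of the Actb control, a measure of RNA integrity, was 2.17, 1.69 and 1.90 in knockout arrays and 1.64, 1.44 and 1.59 in wildtype arrays, so it was higher in every knockout array. The same ratio of the Gapdh control was 1.18, 0.884 and 1.16 in knockout arrays and 0.982, 0.824 and 0.880 in wildtype arrays, which overlapped. The part of RNA integrity in the values below was not tested. Retinal identity was clear: all 17 retina genes with a probe set were above the filter, their summed signal was 37289 to 39961 in knockout and 39309 to 43461 in wildtype arrays, and Sag, the rod arrestin, had 6190 to 7052 in knockout and 7344 to 7886 in wildtype arrays.

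Among the G1 cyclins and kinases, which start the cycle, 5 of 6 tested genes had positive values (6 of 6 with quantile or median scaling or without rescaling), with a median log2 fold change of 0.10, and none passed the test. Relative to the median of all tested probe sets, 5 of 6 lay above it with the scaling used here and with each of these. Ccnd3, a D-type cyclin, had a scaled signal of 295, 309.6 and 337 in knockout arrays 1 to 3, against 273, 278 and 278 in wildtype arrays 1 to 3. The knockout arrays were all higher than every wildtype array, and the log2 fold change was 0.17 ± 0.15 (SE). Cdk2, the kinase partner of cyclins E and A, had 71.9, 82.8 and 76.9 in knockout and 63.4, 65.9 and 62.5 in wildtype arrays. Its groups did not overlap either, with a log2 fold change of 0.21 ± 0.19 (SE).

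Ccnd1, the main D-type cyclin of retinal progenitors, had 1658, 1182 and 1744 in knockout and 1494, 1442 and 1306 in wildtype arrays. The knockout arrays held both the highest and the lowest value, and the log2 fold change was 0.09 ± 0.17 (SE). Cdk4, its kinase partner, had 1006, 874 and 852 in knockout and 826, 1011 and 709.95 in wildtype arrays, a log2 fold change of 0.11 ± 0.17 (SE) with overlapping groups. Ccnd2 had 122, 140.4 and 146 in knockout and 179.99, 152 and 94.8 in wildtype arrays, so the wildtype arrays alone spanned the knockout values. Ccne2, an E-type cyclin, had a log2 fold change of 0.08 with overlapping groups. Ccne1 and Cdk6 lay below the filter and overlapped: Ccne1 had 55.1, 49.4 and 23.5 in knockout and 48.9, 70.02 and 36.9 in wildtype arrays, and Cdk6 had 35.5, 18.7 and 29.3 in knockout and 19.3, 31.2 and 21.5 in wildtype arrays.

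Of the genes that hold cells in G1, and of Ccng1, a cyclin induced by p53, 4 of 5 tested had positive values (median log2 fold change 0.14; 5 of 5 with median scaling or without rescaling, and 2 of 5 without wildtype array 2), and none passed. Above the median of all tested probe sets lay 4 of 5 with the scaling used here and with median scaling, and 5 of 5 without rescaling. Cdkn1a, which encodes the p53-induced inhibitor p21, had a scaled signal of 407, 129.8 and 199 in knockout arrays and 197, 159 and 125 in wildtype arrays. Knockout array 1 alone was far above the rest, and the log2 fold change of 0.44 ± 0.34 (SE) was 0.02 without that array. Cdkn1b, encoding p27, which keeps differentiated retinal cells out of the cycle, had 718, 514 and 518 in knockout and 497, 531 and 424 in wildtype arrays. Knockout array 1 was again the highest, and the log2 fold change of 0.25 ± 0.18 (SE) was 0.09 without it.

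Cdkn1c, encoding p57, had 461, 529.8 and 405 in knockout and 478, 325 and 465 in wildtype arrays, with overlap and a log2 fold change of 0.14 ± 0.19 (SE). Rb1, the retinoblastoma protein gene, had 284, 375 and 365 in knockout and 350.4, 269 and 379 in wildtype arrays, a log2 fold change of 0.04 ± 0.19 (SE). E2f1, the transcription factor that Rb1 restrains, lay below the filter with 49.2, 28.0 and 53.9 in knockout and 68.4, 73.4 and 73.8 in wildtype arrays. The groups did not overlap, with knockout lower and a log2 fold change of -0.56, but this probe set was not tested and a dimmer second E2f1 probe set had 0.07. Ccng1 had 318, 436 and 362 in knockout and 325, 311 and 499.9 in wildtype arrays, a log2 fold change of -0.004, and the further tested probe sets of Ccng1 gave -0.57 and -0.27.

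**Figure D2:**
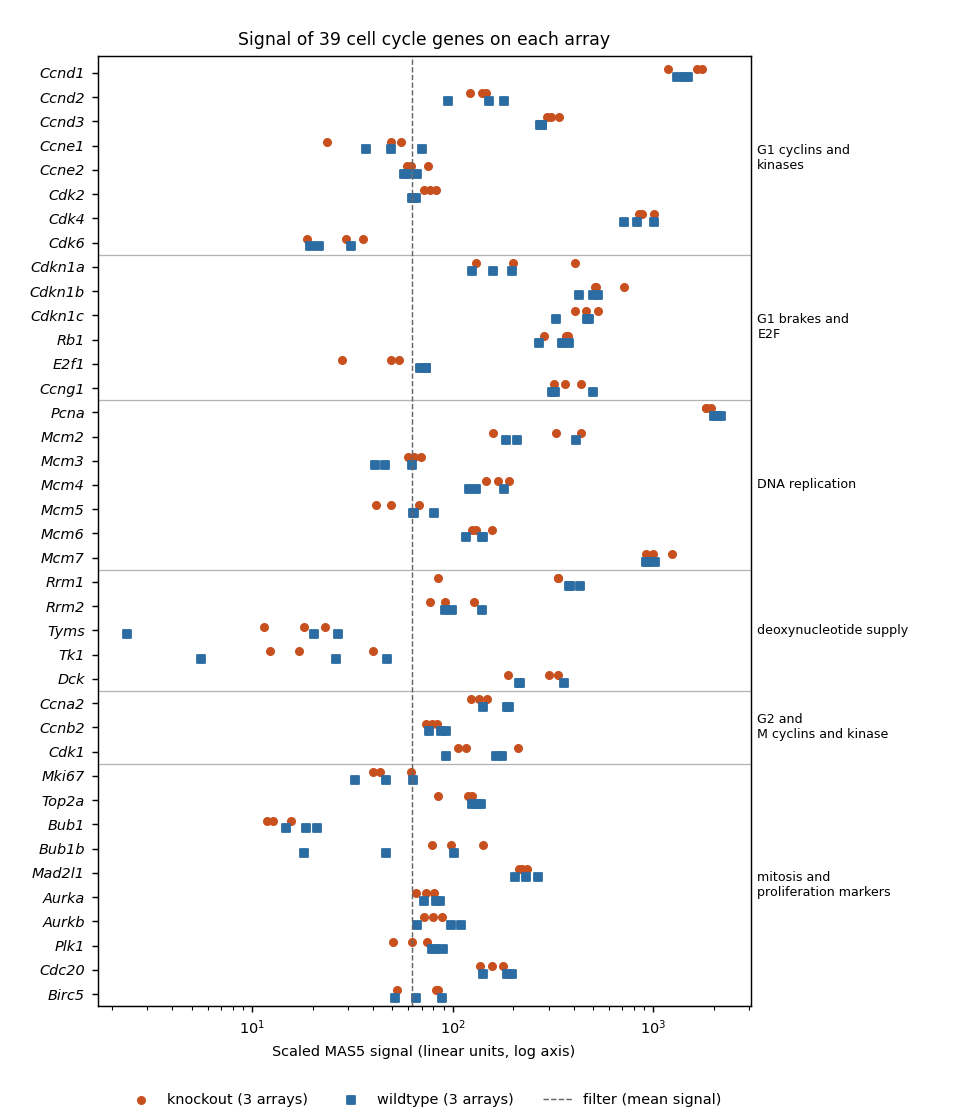
The scaled MAS5 signal of each of the 39 genes is drawn on a log axis, with knockout arrays as circles above and wildtype arrays as squares, and a dashed line at the mean signal below which probe sets were not tested. For most genes the circles and squares share a range, and single arrays stand away from the rest for Cdkn1a (knockout array 1), Rrm1 (knockout array 1) and Bub1b (wildtype array 2).

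Replication genes gave positive values in 4 of 5 tested cases (median log2 fold change 0.12; 5 of 5 without rescaling, 2 of 5 without knockout array 1 and 3 of 5 without wildtype array 2), and none passed. Pcna, the sliding clamp of the DNA polymerases, was the exception, with a scaled signal of 1822, 1932 and 1835 in knockout arrays and 1999, 2084 and 2174 in wildtype arrays. Each knockout value was lower than each wildtype value, by a log2 fold change of -0.16 ± 0.11 (SE; 0.15 without rescaling, where the median of all tested probe sets was 0.29). The 95% interval of Pcna, -0.41 to 0.09, was the narrowest among the 30 tested genes. Relative to the median of all tested probe sets, 4 of the 5 replication genes lay above it with the scaling used here and without rescaling. The Mcm genes encode the 6 subunits of the helicase that unwinds DNA at the fork.

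Mcm2 had 433, 328 and 158 in knockout and 209.9, 184 and 410.4 in wildtype arrays, so both groups spanned more than 2-fold and the log2 fold change was 0.16 ± 0.37 (SE). Mcm4 had 147, 168 and 191 in knockout and 129.9, 121 and 179 in wildtype arrays, a log2 fold change of 0.22 ± 0.20 (SE). Mcm6 had 125, 131 and 158 in knockout and 116, 141 and 140.2 in wildtype arrays, a log2 fold change of 0.05 ± 0.18 (SE). The groups overlapped for each of these 3 subunits. Mcm7 had 1244, 922 and 994 in knockout and 922, 1016 and 940.2 in wildtype arrays, a log2 fold change of 0.12 ± 0.15 (SE), but another Mcm7 probe set gave 267, 379.6 and 402 in knockout and 479, 509 and 416 in wildtype arrays. In that second probe set the knockout arrays all lay lower (log2 fold change -0.42 ± 0.19, SE), so the probe sets of Mcm7 disagreed in sign. Mcm3 and Mcm5 were below the filter with overlapping groups, at log2 fold changes of 0.30 and -0.31. The dimmer Mcm3 probe sets, also untested, disagreed in sign. They gave 0.89 (knockout above in all arrays), -0.70 (knockout below in all arrays), -0.32 and -0.18.

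Deoxynucleotide supply rested on 3 tested genes, of which 1 had a positive value (2 without rescaling and 0 without knockout array 1), and none passed. Relative to the median of all tested probe sets, 1 of 3 lay above it with the scaling used here and without rescaling. Rrm1, the large subunit of ribonucleotide reductase, had a scaled signal of 84.8, 333 and 335 in knockout arrays and 381, 382 and 431 in wildtype arrays. No knockout array reached the dimmest wildtype array, but knockout array 1 was far dimmer than the other 2. The log2 fold change of -0.83 ± 0.41 (SE) was -0.24 without knockout array 1. The second Rrm1 probe set had 181, 270.4 and 336 in knockout and 346, 319 and 244 in wildtype arrays, which overlapped (log2 fold change -0.22 ± 0.23, SE), with knockout array 1 again the lowest.

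Rrm2, the small subunit whose transcript peaks in S phase, had 127, 76.7 and 91.5 in knockout and 139, 91.6 and 99.0 in wildtype arrays, a log2 fold change of -0.14 ± 0.23 (SE) with overlap. Dimmer Rrm2 probe sets below the filter disagreed in sign, at -0.62 and 0.18, each with overlap. Dck, the salvage kinase for deoxycytidine, had 333, 301 and 188 in knockout and 214, 217 and 359 in wildtype arrays, a log2 fold change of 0.06 ± 0.26 (SE). Its dimmest tested probe set differed from that: it had 30.3, 77.6 and 82.3 in knockout and 127, 143 and 154 in wildtype arrays. That probe set gave a log2 fold change of -1.03 ± 0.28 (SE; limma adjusted p = 0.999) with knockout below in all arrays, and the third Dck probe set gave -0.13. Tyms and Tk1, the thymidylate enzymes, lay below the filter, and their groups overlapped, at log2 fold changes of 0.10 and -0.05. Dimmer Tyms probe sets, also untested, gave -0.41 and -0.07.

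The genes of G2 and mitosis in this set were mostly at negative values. All 3 tested members among the cyclins and kinase of G2 and M, and 6 of the 8 tested mitotic and proliferation genes, had negative log2 fold changes, with medians of -0.10 and -0.12. These directions depended on the scaling: without rescaling 2 of 3 and 7 of 8 were positive, and relative to the median of all tested probe sets 0 of 3 and 2 of 8 lay above it under each of the 4 scalings. Without knockout array 1, 0 of 3 and 1 of 8 were positive, and without wildtype array 2, 1 of 3 and 1 of 8 were. Ccna2, cyclin A2, had a scaled signal of 136, 123 and 147 in knockout arrays and 186, 190.2 and 141 in wildtype arrays, a log2 fold change of -0.30 ± 0.18 (SE) with overlap through wildtype array 3. The second Ccna2 probe set had 122, 91.4 and 123 in knockout and 231, 145 and 163 in wildtype arrays. There the groups did not overlap, with a value of -0.59 ± 0.21 (SE) on the log2 scale, and limma gave an adjusted p = 0.999.

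Ccnb2, cyclin B2, had 78.6, 73.1 and 83.5 in knockout and 92.4, 76.4 and 86.9 in wildtype arrays, a log2 fold change of -0.10 ± 0.18 (SE). Cdk1, the mitotic kinase, had 210.4, 106 and 116 in knockout and 164, 177 and 92.6 in wildtype arrays, and its log2 fold change of -0.02 ± 0.29 (SE) changed sign in several settings. For both genes the groups overlapped.

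Plk1, the kinase that drives spindle assembly and mitotic exit, had 62.8, 50.1 and 74.7 in knockout arrays and 81.3, 89.7 and 78.5 in wildtype arrays. The groups were apart, with knockout lower by a log2 fold change of -0.33 ± 0.20 (SE). Top2a, the topoisomerase that untangles chromosomes, had 119, 84.6 and 124 in knockout and 132, 124 and 138 in wildtype arrays, a log2 fold change of -0.24 ± 0.19 (SE) with overlap. Cdc20, the activator of the anaphase ligase, had 179, 136 and 157 in knockout and 198, 186 and 141 in wildtype arrays, a log2 fold change of -0.13 ± 0.19 (SE) with overlap. The Aurora kinases Aurka and Aurkb had -0.11 and -0.14, and Mad2l1, of the spindle checkpoint, had -0.06, each with overlapping groups.

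Bub1b, the spindle checkpoint kinase BubR1, went the other way from most of this group. It had 97.5, 78.9 and 142 in knockout arrays and 46.3, 18.1 and 101 in wildtype arrays. Wildtype array 3 lay above 2 of the knockout arrays, so the groups overlapped, and wildtype array 2 was the lowest. Bub1b had a log2 difference of 0.88 ± 0.39 (SE), with an adjusted p = 0.999 from limma, and 0.46 without wildtype array 2. Birc5, the survivin gene, was the other positive value, at 0.08 ± 0.24 (SE).

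Mki67, the gene of the Ki-67 proliferation antigen, lay below the filter, with 61.8, 40.1 and 43.4 in knockout arrays and 63.4, 32.5 and 46.6 in wildtype arrays. Its groups overlapped throughout, and the log2 fold change was 0.03. Bub1, the other checkpoint kinase, lay far below the filter at 12.6, 15.6 and 11.9 in knockout and 18.6, 21.04 and 14.7 in wildtype arrays. At the filter itself, the lowest mean signals among tested genes were 63.2 for Ccne2 and 70.5 for Cdk2, and the highest among untested genes were 61.0 for Mcm5 and 57.8 for E2f1.

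**Figure D3:**
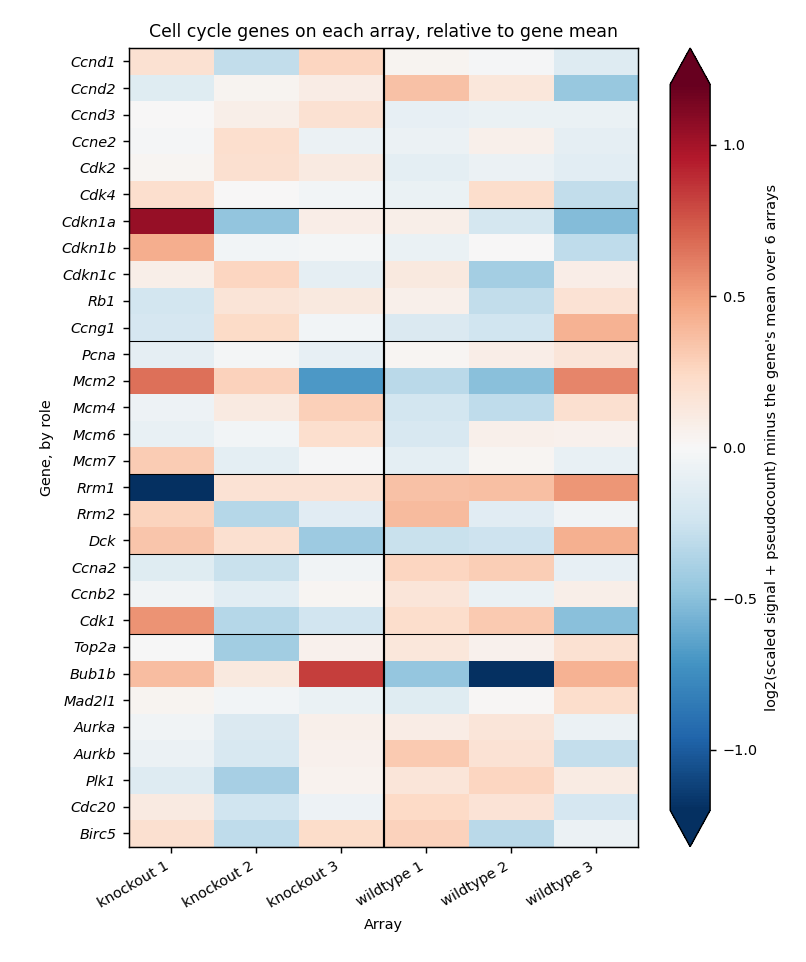
The log2(scaled signal + pseudocount) of the 30 tested genes is shown as the difference from each gene's mean over the 6 arrays, with knockout arrays on the left of the black line and wildtype arrays on the right, in the same role order. The deepest colours sit in single arrays (Rrm1 and Cdkn1a in knockout array 1, Bub1b in wildtype array 2).

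Averaged over the 30 genes, the log2 signal relative to each gene's mean was 0.06, -0.06 and 0.02 in knockout arrays 1 to 3 and 0.03, -0.06 and 0.01 in wildtype arrays 1 to 3. The groups overlapped. For the 8 mitotic genes the means were 0.05, -0.20 and 0.14 in knockout and 0.07, -0.10 and 0.04 in wildtype arrays, with both groups holding high and low arrays. For the 3 genes of G2 and M they were 0.12, -0.25 and -0.08 in knockout and 0.21, 0.18 and -0.17 in wildtype arrays. Knockout array 1, which stood apart over all probe sets, was the lowest of the 6 arrays for 2 of the 30 genes and the highest for 5, against 28.2% and 25.3% of all probe sets.

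Probe sets of one gene often differed, and those singled out above for Mcm7, Dck and Ccna2 were chosen after their values were seen. A second tested probe set existed for 11 of the 30 genes, 17 probe sets in all, and 9 of the 17 had the sign of the probe set used. All tested probe sets were negative for Ccna2, Ccnd2, Ccng1, Cdc20 and Rrm1, and both were positive for Mcm2. Those of Ccnd1, Cdk4, Dck, Mcm4 and Mcm7 lay on both sides of 0. Over all 47 tested probe sets of these genes, 19 had positive values, where 50.1% of all probe sets did. An unadjusted p under 0.05 was reached by 3 of the 47, against a share of 3.82% over all probe sets. Groups did not overlap for 8 of the 47, 6 of them with knockout lower, against 9.1% and 5.05% of all probe sets. Of the probe sets used, 12 have identifiers ending in _x_at, _s_at or _a_at, which can hybridise with related transcripts or with several transcripts of one gene.

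**Figure D4:**
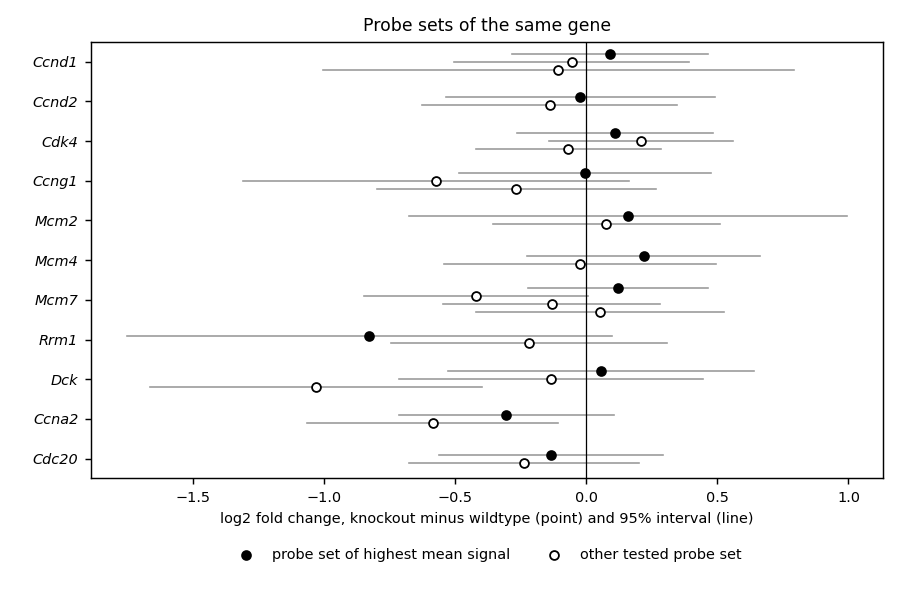
For the 11 genes with more than one tested probe set, the log2 fold change, knockout minus wildtype, of the probe set with the highest mean signal (filled) and of the others (open) is drawn with its 95% interval. Probe sets of Ccnd1, Cdk4, Dck, Mcm4 and Mcm7 fall on both sides of 0, while those of Ccna2 both lie below it, at -0.30 and -0.59.

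A wider list of 108 cell cycle genes outside this set, covering origin licensing, polymerases, E2F partners, kinetochore and spindle genes, had 98 with a probe set and 73 tested. None passed the test, 32 had positive and 41 negative values, and the median log2 fold change was -0.02. With median scaling 55 of 73 were positive, and without rescaling 71. Above the median of all tested probe sets lay 32 with the scaling used here and 38 with quantile scaling. With median scaling 32 lay above it, and without rescaling 31. An unadjusted p under 0.05 was reached by 3 of the 73, close to the 3.82% of all tested probe sets. Groups did not overlap for 4 of the 73, or 5.48%, against 9.1% of all tested probe sets. Dtymk, which makes thymidine diphosphate, had a scaled signal of 432, 317 and 308 in knockout and 221, 262 and 246 in wildtype arrays, a log2 fold change of 0.49 ± 0.18 (SE) with knockout above in all arrays. Stmn1, a microtubule regulator that young neurons also express, had 4951, 4646 and 4676 in knockout and 5541, 6111 and 5224 in wildtype arrays, a log2 fold change of -0.24 ± 0.10 (SE) with knockout below in all arrays. Rpa2, of the single-strand DNA binding complex, had 62.6, 191 and 121 in knockout and 169.6, 237 and 219 in wildtype arrays, a log2 fold change of -0.75 ± 0.31 (SE), and knockout array 1 was the lowest. The other genes named by the size of the statistic were Slbp (0.27), Pold2 (0.32), Smc4 (0.23), Kif2c (-0.30) and Racgap1 (-0.25).

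Genes of retinal progenitors, the cells whose division was ending, had positive values in 10 of 12 tested cases, with a median log2 fold change of 0.11, and none passed. Their mean was 0.27, -0.04 and -0.04 in knockout arrays 1 to 3 and -0.15, 0.06 and -0.10 in wildtype arrays 1 to 3, so knockout array 1 was the highest and the other arrays overlapped. Without knockout array 1, 7 of the 12 were positive. The 12 values ran from -0.17 to 0.39. Pax6, a progenitor and inner retinal factor, had -0.14, and Hes5, a Notch target, had -0.17 with a spread of 2.06 between arrays on the log2 scale. These 2, named for the highest signal and the widest spread, were the only negative values.

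Other cell types that can divide or be carried along in dissection varied between arrays. The summed signal of 18 vascular genes was 3205 to 3965 in knockout and 3083 to 3729 in wildtype arrays, that of 18 microglial genes 2143 to 3100.5 and 2114 to 2489, and that of 8 astrocyte genes 1544 to 1663 and 1096 to 1595. The sum of 16 lens genes was 627 to 1528 in knockout and 443 to 2568 in wildtype arrays, with wildtype array 3 highest. The sum of 10 pigment cell genes was 2304 to 3564 and 1386 to 3298, with wildtype array 2 lowest, and that of 8 blood genes, 7 of them below the filter, was 143 to 195 and 150.03 to 194. The sum of 14 skeletal muscle genes, 11 of them below the filter, was 382 to 438 in knockout and 517 to 784 in wildtype arrays, without overlap. These sums are on the linear scale, so the brightest genes weigh most. The brightest were Slc1a3 among the astrocyte genes (mean signal 532) and Ttr among the pigment cell genes (1253). No gene of these lists was at 0 on any array. The part of these cell types in the values above was not tested.

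Promoters of cell cycle genes carry known elements that tie their transcription to a phase: the CHR (TTTGAA) in many mitotic genes, the CCAAT box bound by NF-Y, and E2F sites in many replication genes. The RefSeq table (GRCm38.p6; 250 bases before to 50 after each start) listed 35 promoters for 32 of the 40 genes. The starts were taken as listed and not checked, so a listed stretch need not be the promoter used in retina. On either strand, TTTGAA was found in 28.6% of these promoters and in 17.9% of all 32851 promoters listed. CCAAT was found in 65.7% against 37.4%, and one of the E2F words TTTCGCGC, TTTGGCGC, TTTCCCGC or TTTGCCGC in 17.1% against 2.26%. The genes with TTTGAA were Aurka, Bub1b, Ccnb2, Cdc20, Cdk1, Dck, Mcm2, Mki67, Plk1 and Top2a, and those with an E2F word were Cdk1, Cdk2, Mcm3, Mcm5, Mcm6 and Mcm7. Among tested genes, 3 of 9 with TTTGAA and 8 of 13 without it had positive log2 fold changes, with ranges of -0.33 to 0.88 and -0.83 to 0.44 that overlapped. For CCAAT the counts were 7 of 17 with it and 4 of 5 without it, and for the E2F words 3 of 4 with one and 8 of 18 without. The elements, these splits and the promoters shown were chosen after the values were seen.

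The promoters of 4 genes are shown because they hold the elements in different make-up: Mcm6 with overlapping E2F words and reversed CCAAT boxes, Rrm1 with CCAAT boxes alone, and Plk1 and Bub1b, which share TTTGAA and a CCAAT box but had log2 fold changes of opposite sign. Capitals mark the matches, with CCAAT on the opposite strand read as ATTGG, and each sequence runs 5′ to 3′ on the strand of its gene.
Mcm6, chr1:128359656-128359955, minus strand: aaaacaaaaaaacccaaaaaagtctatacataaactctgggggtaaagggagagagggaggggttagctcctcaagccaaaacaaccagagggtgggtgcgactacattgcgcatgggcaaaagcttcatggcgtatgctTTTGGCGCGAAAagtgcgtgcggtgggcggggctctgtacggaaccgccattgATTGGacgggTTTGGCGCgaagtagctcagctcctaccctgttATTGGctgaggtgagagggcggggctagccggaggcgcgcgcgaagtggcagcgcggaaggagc
Rrm1, chr7:102441445-102441744, plus strand: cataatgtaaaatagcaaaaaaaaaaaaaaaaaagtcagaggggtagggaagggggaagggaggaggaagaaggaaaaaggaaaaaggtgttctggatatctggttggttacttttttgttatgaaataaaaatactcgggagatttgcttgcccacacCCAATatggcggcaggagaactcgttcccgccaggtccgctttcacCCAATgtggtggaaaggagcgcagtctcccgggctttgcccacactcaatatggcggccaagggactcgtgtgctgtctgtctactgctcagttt
Plk1, chr7:122159185-122159484, plus strand: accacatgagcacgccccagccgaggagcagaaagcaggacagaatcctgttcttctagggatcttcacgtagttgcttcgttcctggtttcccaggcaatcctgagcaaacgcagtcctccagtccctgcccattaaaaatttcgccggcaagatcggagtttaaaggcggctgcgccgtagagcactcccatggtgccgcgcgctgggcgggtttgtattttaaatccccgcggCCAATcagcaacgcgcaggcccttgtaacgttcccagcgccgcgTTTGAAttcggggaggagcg
Bub1b, chr2:118597961-118598260, plus strand: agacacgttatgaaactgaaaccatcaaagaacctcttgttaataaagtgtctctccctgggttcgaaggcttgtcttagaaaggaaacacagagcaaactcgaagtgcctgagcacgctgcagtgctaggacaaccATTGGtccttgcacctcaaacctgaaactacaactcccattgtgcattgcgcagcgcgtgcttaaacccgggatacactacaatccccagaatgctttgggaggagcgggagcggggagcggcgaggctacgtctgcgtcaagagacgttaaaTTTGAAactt
In Plk1 and Bub1b the TTTGAA match lay downstream of the annotated start, beginning at bases 31 and 41 counted with the start as base 1. A match describes these letters only.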

How the data were processed

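The deposited values are MAS5 intensity values, 1 per probe set and array on a linear scale, per the submitters' processing notes; the version, scaling target and detection calls are not given in the sources used here. Groups and replicate numbers came from the sample titles. Nothing in the labels says that arrays came from separate animals, and the p-values cover only variation among these arrays, some of which could be technical. The 64 control probe sets were left out of the 22690. Arrays were brought to 1 common mean, computed without the top and bottom 2%. The 20th percentile, 19.1, was added as a pseudocount before log2, which understates the change of dim probe sets. The 13575 probe sets with mean signal above 62.4 (the 40th percentile) were fitted in limma 3.58.1 (R 4.3.3; lmFit, eBayes with an intensity trend, Benjamini-Hochberg adjustment over all). Symbols came from the platform annotation, updated through Entrez identifiers; 20380 probe sets had a single symbol, 691 several and 1555 none. The fit was run on data simulated from its own variance model, with differences planted in a part of the probe sets. That run held none of the array differences described above, so it does not test the fit under them.

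The genes and lists were chosen with earlier results of these data known. All 40 genes are named; of the wider list, the 4 tested genes with the largest statistic in each direction; of other lists, those of highest signal or widest spread where a result turns on them. Alternatives covered scaling, pseudocount, filter, variance model, array weights, probe set choice, the replicate number as a block, and arrays left out. The targeted gene is not reported here, so the labels were not checked against it.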

Additional observations from a re-analysis of the deposited data

How the results depend on the processing

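The number of arrays limits the precision. With 3 a group, changes could be missed, also beyond 2-fold, and the smallest change that could be found was not computed. A dimmer Dck probe set at -1.03 on the log2 scale did not pass (limma adjusted p = 0.999). The count of these genes past the threshold was 0 in all 19 alternatives, with 0 to 3 at an unadjusted p under 0.05. The count with positive values (16 of 30) was 10 of 15 with the 60th percentile filter and 27 without rescaling, where their median was 0.31 and that of all probe sets 0.29; with 1 array left out it ranged from 13 to 17 and the median from -0.05 to 0.05. The count of all probe sets past the threshold (2) became 1 when all probe sets were kept, 10 on unscaled arrays, 0 with limma's ordinary statistic (492 at an unadjusted p under 0.05), 4 without wildtype 2 and knockout 1, and 0 to 4 with 1 array left out (0 without wildtype 3, 599 at an unadjusted p under 0.05). The cause was not tested. The count of genes without overlap (5), in settings chosen after seeing the data, was 4, 4 and 3 with quantile, median and no rescaling, 6 without knockout 1, 9 without wildtype 2 and 10 without both, where non-overlap held for 18.5%, 13.9% and 25.9% of all probe sets.

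With the replicate block, 0 of these genes and 2 of all probe sets passed. Arrays sharing a number had deviations with correlations of 0.18, -0.03 and 0.08, and arrays with different numbers had -0.29 to 0.26. The titles state no pairing, and the numbers were not taken to pair samples.

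Of 570 cases of a tested gene and an alternative, the sign changed in 58, in 21 genes. Without rescaling, Aurka (0.15), Aurkb (0.12), Ccnb2 (0.15), Ccnd2 (0.26), Ccng1 (0.29), Cdc20 (0.15), Cdk1 (0.27), Mad2l1 (0.23), Pcna (0.15), Rrm2 (0.12) and Top2a (0.023) were positive. With median scaling Ccnd2 (0.063), Ccng1 (0.085), Cdk1 (0.070) and Mad2l1 (0.031) were, and with quantile scaling Ccnd2 (0.0096) and Cdk1 (0.013). With array weights Ccng1 was 0.16 and Cdk4 -0.0020. With the mean over probe sets Ccnd1 was -0.023, Dck -0.37 and Mcm7 -0.094. Without wildtype 2 and knockout 1, Birc5 (-0.15), Ccnd2 (0.11), Cdkn1c (-0.023), Dck (-0.20) and Mcm2 (-0.34) turned. With 1 array left out, signs turned within the ranges of Birc5 (-0.068 to 0.25), Ccnd1 (-0.012 to 0.27), Ccnd2 (-0.25 to 0.15), Ccne2 (-0.0072 to 0.13), Ccng1 (-0.12 to 0.20), Cdk1 (-0.29 to 0.15), Cdk4 (-0.0084 to 0.24), Cdkn1c (-0.026 to 0.24), Dck (-0.092 to 0.29), Mad2l1 (-0.14 to 0.036), Mcm2 (-0.13 to 0.55), Mcm6 (-0.037 to 0.11), Mcm7 (-0.0013 to 0.21), Rb1 (-0.10 to 0.16) and Rrm2 (-0.31 to 0.017).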
